A study of Mus musculus with 6 samples.

Results

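The genes described here are 43 interferon-stimulated genes, measured by bulk RNA sequencing in sorted dural lymphatic endothelial cells (LECs). They were chosen by name from common knowledge of the interferon response, but with earlier results of these data known. Each of the 43 names matched 1 row among the 55401 gene rows of the count and TPM tables (TPM is a level corrected for gene length and library total). The cells came from male wild-type C57BL/6J mice that received an adeno-associated virus (AAV9) in the cisterna magna at 4 weeks of age. AAV-VEGF-C carried full-length mouse VEGF-C, the growth factor of lymphatic vessels, and AAV-CTRL carried a soluble VEGFR-3 ectodomain fused to Ig that lacks VEGF-C binding, so both groups received a virus and a transgene, and no untreated group was analysed here. Viable LYVE-1+ podoplanin+ CD31+ CD45- cells were sorted from 10 to 12 pooled meninges per library, and 3 experiments gave 1 library of each group, numbered 1 to 3. Since each library is a pool, the spread between animals was not measured, and p-values cover the spread between pools. Because these are bulk samples, fewer cells of a type and less RNA per cell cannot be told apart.

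Interferons are cytokines that cells release on sensing viral nucleic acids. Type I interferons bind the receptor pair Ifnar1 and Ifnar2, and the kinases Jak1 and Tyk2 then signal through Stat2 and its DNA-binding partner Irf9 in the complex ISGF3. ISGF3 binds the interferon-stimulated response element (ISRE) in the promoters of its targets, whereas interferon-gamma acts at gamma-activated sites (GAS), for which Irf1 is a classical target. The products of these genes sense foreign RNA, degrade or edit it, block viral entry and translation, and trim peptides for presentation on MHC class I, and many are kept at a low level in resting tissue.

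The sequence that links these genes was examined in RefSeq promoter windows on GRCm38.p6, which run from 250 bases before to 50 after a gene's start. Windows were found for 33 of the 43 genes, which had 40 windows in all. The ISRE was searched as GAAANNGAAA and the GAS as TTCNNNGAA, on both strands, and the letters of the 2 motifs do not contain each other. The ISRE letters were present in 17 genes, in 45.0% of their windows against 3.44% of all 32851 windows, and 8 of these genes had at least 2 matches. The GAS letters were present in 10 genes, in 25.0% of windows against 8.3% of all, and 11 genes had neither. A match describes the letters only. The promoters below are those of the gene that passed the treatment test (Gbp2), of core genes (Isg15, Ifit1, Ifit3) and of Irf1, the most abundant of the genes. Also shown are 2 genes with their lowest TPM of each group in the first experiment (Oas3, Ddx60). All are written 5′ to 3′ on the strand of the gene, with the ISRE matches in capitals, or for Irf1 the GAS match.
Gbp2, chr3:142620592-142620625, + strand: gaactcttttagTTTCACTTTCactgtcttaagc
Isg15, chr4:156200863-156200908, - strand: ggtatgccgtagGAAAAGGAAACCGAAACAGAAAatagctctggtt
Ifit1, chr19:34640773-34640825, + strand: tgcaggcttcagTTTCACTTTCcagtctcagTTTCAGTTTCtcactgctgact
Ifit3, chr19:34583361-34583428, + strand: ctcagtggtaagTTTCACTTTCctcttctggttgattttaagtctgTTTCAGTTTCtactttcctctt
Oas3, chr5:120777713-120777746, - strand: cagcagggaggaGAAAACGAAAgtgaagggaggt
Ddx60, chr8:61928022-61928086, + strand: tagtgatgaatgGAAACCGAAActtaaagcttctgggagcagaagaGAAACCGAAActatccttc
Irf1, chr11:53769912-53769944, + strand: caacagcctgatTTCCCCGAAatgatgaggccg
The capitals of Isg15 hold 3 overlapping ISRE matches and end 56 bases before the RefSeq start. The single match of Gbp2 ended 49 bases before the RefSeq start, which lies inside the longer GENCODE span of the gene, and the nearer of the 2 matches in Ddx60 ended 9 bases before it.

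The libraries differed in ways that touch every value below. AAV-CTRL totals ran from 6530269 to 12399498 counts and AAV-VEGF-C totals from 564475 to 3261935, so every AAV-VEGF-C library was shallower, and depth and treatment cannot be told apart. Olfactory, vomeronasal and taste receptors, keratin-associated proteins and defensins, which endothelium is not known to use, took up 136.2 to 262.8 CPM (counts relative to the total of the library) in AAV-CTRL but 2751.6 to 6872.1 CPM in AAV-VEGF-C. At that rate per exon base, stray reads would make up 0.162% to 0.611% of the counts of the 43 genes in AAV-CTRL, but 26.0%, 6.06% and 4.96% of them in AAV-VEGF-C 1, 2 and 3. In AAV-VEGF-C 1, 28 of the 43 genes had fewer than 10 counts and 13 had at most 3, counts too low to show a difference by themselves. All 10 lymphatic markers, among them Prox1, Lyve1, Pdpn and Flt4, were detected in every library, with a summed level of 532.9 to 651.0 TPM in AAV-CTRL and 174.3 to 356.7 TPM in AAV-VEGF-C, whereas 8 fibroblast genes summed to 1768 to 4183 TPM and 397.5 to 1336 TPM. Since the use of strand in counting is not known, counts of members that overlap a gene on the other strand (Irf1, Irf7, Oas2, Oasl1, Usp18, Ifi35, Dhx58, Gbp2, Rtp4, Parp9, Adar, Eif2ak2, Psmb8, Psmb9 and Trim30a) or the same one (Irf9, Gbp7, Rtp4 and Parp14), or that have near copies (Ifit3, Oas1a, Mx1, Mx2, Ifitm3, Trim30a and the Gbp genes), are uncertain. The 2 libraries of experiment 1 stood apart: 12 border macrophage markers summed to 26.1 and 20.8 TPM there and to between 730.8 and 2412 TPM in the other 4, in cells gated as CD45-.

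The 43 genes ranged widely in level in AAV-CTRL, as the plot of log2(TPM + 1) by library shows. Irf1, the transcription factor named above, was the highest, at 88.9, 213.0 and 303.7 TPM in AAV-CTRL 1, 2 and 3 (mean 201.9 ± 107.9 SD, n = 3). It was followed by Ifitm3, which blocks the entry of viruses at endosomes, at 56.8, 104.8 and 156.9 TPM (106.2 ± 50.1). Together, Irf1 and Ifitm3 made up 30.1% to 35.4% of the summed TPM of the 43 genes in AAV-CTRL and 24.5% to 36.3% in AAV-VEGF-C. The next in order were Lgals3bp, a secreted galectin-binding glycoprotein (55.4 ± 17.3 TPM), Ifi27, a small membrane protein (43.9 ± 16.4), Psmb8, a catalytic subunit of the immunoproteasome (39.5 ± 23.7), Oasl2, a relative of the oligoadenylate synthetases (30.6 ± 8.05), Bst2 or tetherin, which holds budding virions on the cell surface (30.1 ± 18.5), and Ifit3, of the family that binds foreign RNA caps (26.4 ± 9.70). The lowest was Oas3, an oligoadenylate synthetase that activates RNase L, at 0, 1.81 and 1.55 TPM. The ranges of neighbours in this order overlapped over the 3 AAV-CTRL libraries throughout, except Cmpk2 (a mitochondrial nucleotide kinase, 3.10 ± 0.365 TPM) above Oas3. Such ranges ignore that both genes were measured in the same libraries. Irf1 lay above Ifitm3 and Ifitm3 above Lgals3bp in each AAV-CTRL library, whereas Lgals3bp lay above Ifi27 in AAV-CTRL 1 and 2 but not 3. Differences between neighbours within libraries were not tested.

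**Figure D1:**
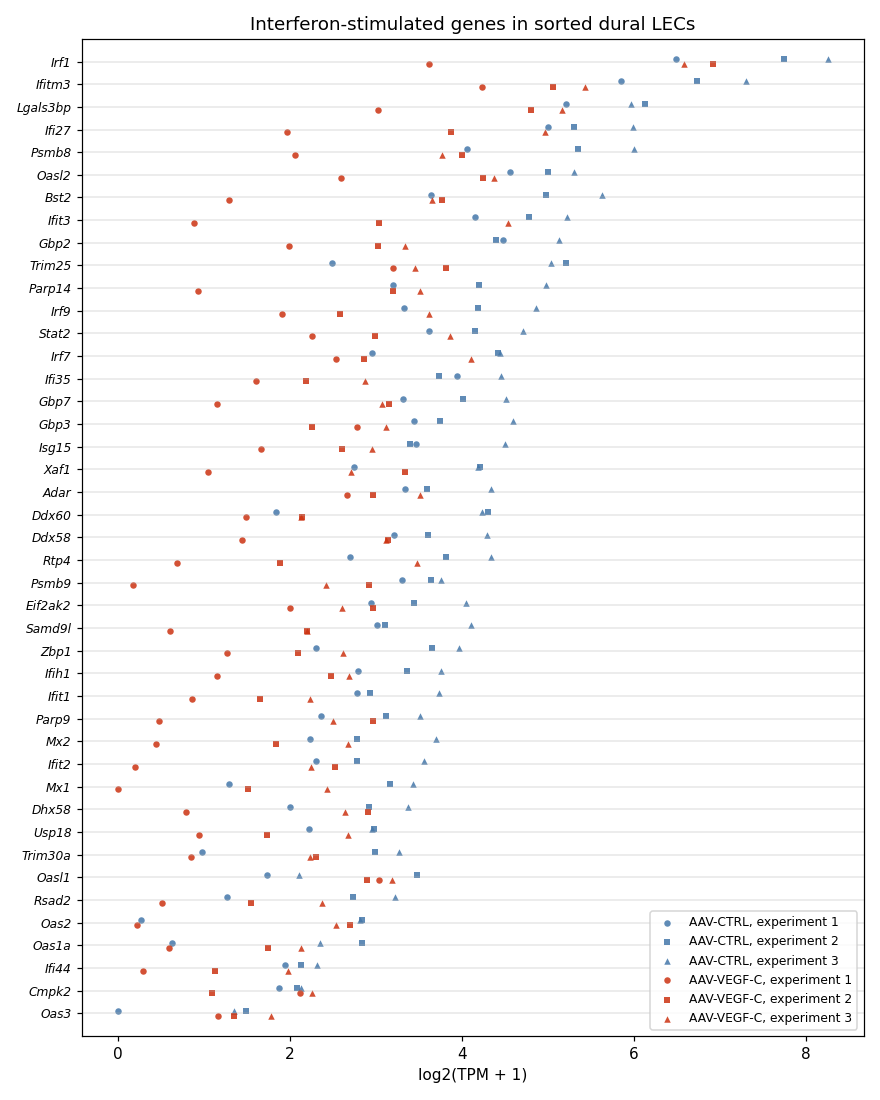
Level of each of the 43 interferon-stimulated genes as log2(TPM + 1) on the horizontal axis, with 1 point per library (blue AAV-CTRL, red AAV-VEGF-C, marker shape for the experiment number) and genes ordered from top to bottom by their mean in AAV-CTRL. Irf1 and Ifitm3 lead the order and Oas3 ends it, and the point of AAV-VEGF-C experiment 1 lies farthest left for most genes.

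By role, the 4 transcription factors had means of 15.9 to 201.9 TPM in AAV-CTRL, the 5 membrane and secreted proteins 12.6 to 106.2, the 2 immunoproteasome subunits 10.9 and 39.5, and the 3 guanylate-binding proteins 15.1 to 25.1. The 5 sensors of RNA and DNA had 6.31 (Dhx58) to 13.0 TPM (Ddx60), and the 15 antiviral effectors ranged from 1.12 (Oas3) to 30.6 TPM (Oasl2). Isg15, the ubiquitin-like protein that is conjugated to targets in the antiviral response, had 10.1, 9.52 and 21.7 TPM. The 43 genes summed to 483.4, 941.5 and 1302 TPM in AAV-CTRL 1, 2 and 3, and to 118.6, 417.7 and 492.8 TPM in AAV-VEGF-C. The first control library was thus the lowest of its group, and its value lay within the range of the AAV-VEGF-C libraries.

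Whether VEGF-C altered the interferon-stimulated genes was then asked by comparing the groups. Of the 43 genes, all of which passed the filter on low counts, 1 was lower in AAV-VEGF-C by edgeR at an adjusted p under 0.05, against 0.659% of the 17459 genes tested, and 0 were higher, against 10.5%. At an unadjusted p under 0.05, edgeR had 4 of the 43, all lower (Gbp2, Ifi35, Ifit1 and Samd9l), whereas 28.1% of all genes had such a p, and DESeq2 and both kinds of limma fit called 0 of them higher as well. With the experiment number as a block, 1 was lower (2.07% of all genes), 0 were higher (12.8%), and 10 had an unadjusted p under 0.05 (31.8%).

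The direction was mostly downward, but abundant genes in general went the same way. The log2 fold change lay below 0 for 35 of the 43 genes (81.4%), against 50.2% of all genes tested and 76.0% of the 7234 tested genes that averaged 5 TPM or more over the 6 libraries, called abundant here. Of the 32 members at or above that level, 28 lay below 0 (87.5%). This direction depended on the scaling: with factors set on the 2000 most abundant genes, 19 of the 43 lay below 0 beside 46.0% of the abundant genes. After drawing all libraries down to the smallest total, 20 of the 33 genes left lay below 0, beside 55.9% of the abundant genes. With a minimum mean of 5 TPM, 22 of the 32 tested did so, beside 53.1%. The median log2 fold change was -0.35 over the 43 genes and -0.50 over those 32, beside -0.0037 over all genes and -0.41 over the 7234 abundant ones. In the 3 same-numbered pairs, the median log2 ratio of CPM + 1 over the 43 genes was -0.77, -0.42 and -0.27, and over the abundant genes -0.62, -0.30 and -0.34. A list of 16 housekeeping genes had a median of -0.72, with 1 of them lower and 0 higher, so the median of the interferon-stimulated genes lay between that of all genes and that of the housekeeping genes.

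In CPM divided by edgeR's TMM scaling factors, the CPM given for single genes from here on, 8 of the 43 genes had all 3 AAV-VEGF-C libraries below all 3 AAV-CTRL libraries (18.6%, beside 17.6% of all genes), and the same 8 were 25.0% of the 32 abundant members, beside 33.3% of all abundant genes. None had them above (22.3% of all genes, 7.06% of the abundant ones). The 8 were Gbp2, Ifi27, Irf9, Ifi35, Isg15, Ddx58, Samd9l and Ifit1. In TPM, which divides by a total that includes the stray reads, 15 were below (34.9%, beside 36.4% and 61.4%) and 0 above (12.8%). These counts depended on single libraries: 21, 17 and 15 of the 43 were below in CPM without AAV-CTRL 1, AAV-VEGF-C 2 or AAV-VEGF-C 3. These were 48.8%, 39.5% and 34.9%, beside 22.8%, 24.9% and 26.9% of all genes. Among the abundant, they were 62.5%, 53.1% and 40.6% of members, beside 43.65%, 49.8% and 45.8% of all. Without AAV-CTRL 2, AAV-CTRL 3 or AAV-VEGF-C 1, 9, 11 and 9 were below (20.9%, 25.6% and 20.9%, beside 23.6%, 22.9% and 21.7% of all genes). Without both libraries of experiment 1, 22 were below (51.2%, beside 27.6% of all genes, and among the abundant 65.6% of members and 52.5% of all), and the median was -0.37. There edgeR called 0 of the 43, while it called 1992 of all 19222 genes tested, 110 of them lower (0.572%). At an unadjusted p under 0.05 it had 8 of the 43, for which the share of all genes was not taken.

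**Figure D2:**
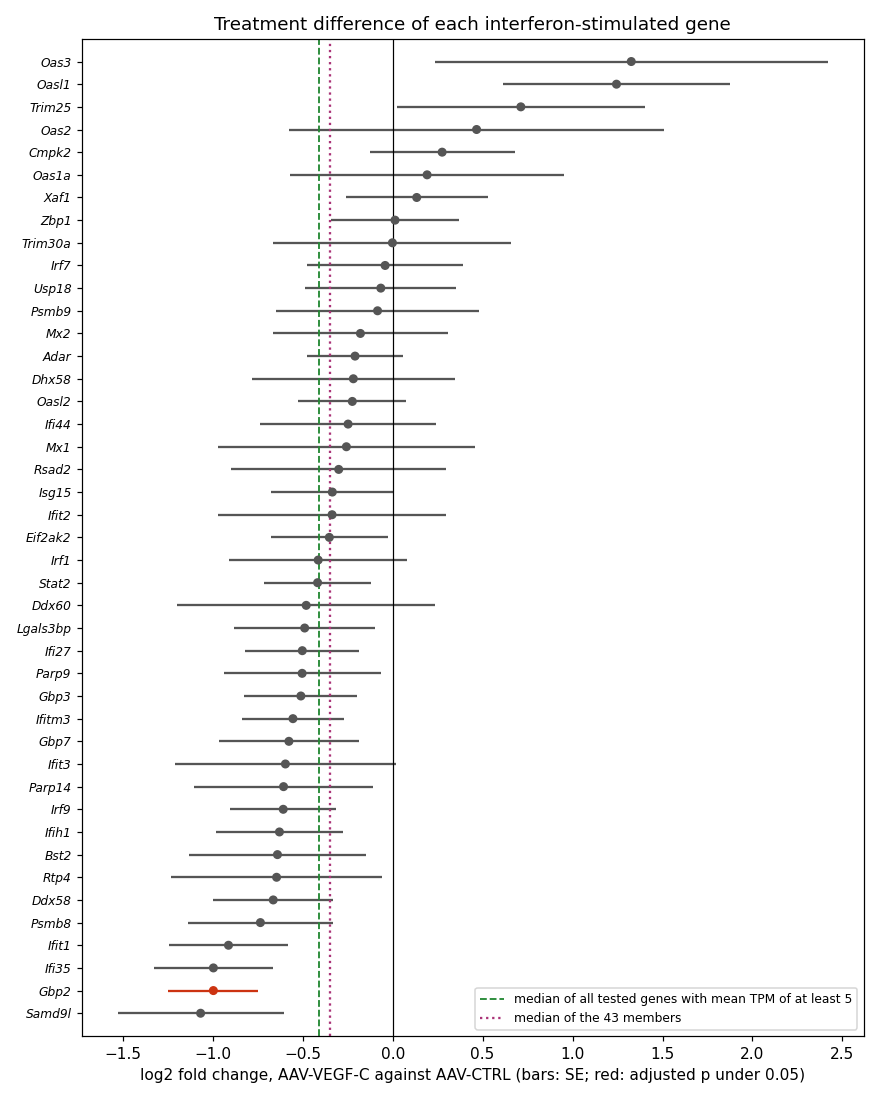
log2 fold change of AAV-VEGF-C against AAV-CTRL for each of the 43 genes by edgeR (points, with SE bars), sorted by size, with 0 as a solid line, the median of the 43 genes (-0.35) dotted and the median of the abundant genes (mean of 5 TPM or more, -0.41) dashed. Gbp2 is the gene in red, with an adjusted p under 0.05, and 35 points lie left of 0.

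Gbp2, a guanylate-binding GTPase that is recruited to the vacuoles of intracellular pathogens, was the gene that passed. It lies at chr3:142620602-142638008 on the + strand (GRCm38) and overlaps Mir6381 on the other strand. AAV-CTRL held 562, 589 and 1268 of its counts and AAV-VEGF-C 16, 62.0 and 151, or 90.2, 74.9 and 85.9 CPM against 37.0, 44.4 and 43.4 CPM. The groups did not overlap and the 3 AAV-VEGF-C libraries were close to each other. The log2 fold change was -0.998 (SE 0.251, edgeR adjusted p = 0.0425) and -0.99 with the block (adjusted p = 0.0448), and the same-numbered pairs differed by -1.26, -0.74 and -0.97. The call was lost on leaving out any 1 of the 6 libraries, where the log2 fold change was -1.16 to -0.99 and the adjusted p 0.0585 to 0.103, and after subtraction of the stray reads it was -0.70 (adjusted p = 0.318). It was also lost by scaling on library size alone (-1.11, adjusted p = 0.0802) or on the 2000 most abundant genes (-0.54, adjusted p = 0.209), with a minimum mean of 5 TPM (-0.65, adjusted p = 0.307) and after drawing down (-0.40, adjusted p = 0.660), all by edgeR. Few genes of any kind were called lower in these fits, against 115 in the main fit. The number was 0 without AAV-CTRL 2, AAV-CTRL 3 or AAV-VEGF-C 2, after subtraction, with the 5 TPM minimum and after drawing down. It was 48 without AAV-CTRL 1, 43 without AAV-VEGF-C 1 and 8 without AAV-VEGF-C 3. By library size alone it was 53, and with the 2000 most abundant genes 8. Stray reads at the measured rate would make up 10.8% of the counts of Gbp2 in AAV-VEGF-C 1. The other 2 guanylate-binding proteins, which share a cluster with Gbp2, had log2 fold changes of -0.58 (Gbp7) and -0.51 (Gbp3), and both had overlapping CPM.

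The core of the pathway, the transcription factors, did not pass the test. Irf1 had 169.9, 310.1 and 376.4 CPM in AAV-CTRL and 99.4, 343.3 and 196.1 CPM in AAV-VEGF-C. These groups overlapped, and the log2 fold change was -0.41 (SE 0.495). Irf7, which amplifies the induction of type I interferon, had 20.2, 59.3 and 42.2 CPM against 27.7, 37.99 and 50.04 CPM, with -0.04 (SE 0.432) between overlapping groups. Stat2 had 50.9, 58.0 and 63.8 CPM against 30.0, 42.3 and 54.4 CPM, with 1 AAV-VEGF-C library inside the AAV-CTRL range and -0.42 (SE 0.296). Irf9, the DNA-binding partner in ISGF3, had 37.4, 55.6 and 60.3 CPM against 27.7, 34.4 and 37.1 CPM. Its groups touched without overlap, at -0.61 (SE 0.296), and it overlaps Rnf31 on the same strand, so its count is uncertain. Over these 4 genes the edgeR adjusted p ran from 0.224 to 0.968.

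Among the antiviral effectors, 10 of 15 lay below 0 and none passed (adjusted p of 0.122 to 0.909 by edgeR). Samd9l, an antiviral factor and suppressor of growth, had 45.8, 50.2 and 76.6 CPM in AAV-CTRL and 9.24, 38.7 and 30.2 CPM in AAV-VEGF-C, the furthest apart of the 43 genes on the lower side (-1.07, SE 0.461). Ifit1, which sequesters foreign RNA caps, had 23.8, 23.8 and 30.3 CPM against 9.24, 12.9 and 17.2 CPM, without overlap, at -0.91 (SE 0.333). Ifit3, whose promoter holds the same 2 ISRE sequences as that of Ifit1, varied more, with 49.6, 69.3 and 62.5 CPM against 6.93, 31.5 and 74.2 CPM. AAV-VEGF-C 3 was the highest of the 6 libraries and AAV-VEGF-C 1 the lowest, and reads can be shared with its near copy Ifit3b. Oasl2 had 56.8, 75.9 and 77.9 CPM against 41.6, 71.7 and 64.7 CPM, a small difference between overlapping groups (-0.23, SE 0.301).

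The 5 effectors above 0 were Oas3, Oasl1, Oas2, Cmpk2 and Oas1a, all but Cmpk2 of the oligoadenylate synthetase family. Oasl1, which restrains the translation of Irf7, had 4.34, 20.4 and 6.30 CPM in AAV-CTRL and 37.0, 17.9 and 21.6 CPM in AAV-VEGF-C. The groups overlapped through the second pair, the pair differences were 2.83, -0.17 and 1.63, and the log2 fold change was 1.24 (SE 0.630, adjusted p = 0.242 by edgeR). Oas3 had 0, 13.2 and 7.38 CPM against 11.6, 18.6 and 20.1 CPM, where AAV-CTRL 1 held 0 counts and AAV-VEGF-C 1 held 5, at 1.33 (SE 1.094). Stray reads at the measured rate would make up 97.6%, 24.9% and 16.1% of its counts in AAV-VEGF-C 1, 2 and 3. In AAV-CTRL 2 and 3 they would make up 1.52% and 1.95%. Oas2 had a log2 fold change of 0.47 (SE 1.044), and Mx1 and Mx2, the dynamin-like GTPases, -0.26 and -0.18. Among the effectors not yet named, Adar and Eif2ak2 (PKR), which edit or sense double-stranded RNA, had -0.21 and -0.35, Ifit2 had -0.34, Cmpk2 0.27 and Oas1a 0.19, all between overlapping groups. No gene of the Oas and Oasl family passed the test, and Oas2 turned below 0 in limma on log2(TPM + 1).

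The 5 membrane and secreted proteins all lay below 0, from -0.65 (Rtp4, a chaperone of receptors) to -0.49 (Lgals3bp), with adjusted p of 0.247 to 0.514 by edgeR. Ifitm3 had 63.9, 101.1 and 90.7 CPM in AAV-CTRL and 67.0, 54.5 and 53.8 CPM in AAV-VEGF-C. The groups overlapped through the first experiment, whose pair differed by 0.07, whereas the other two differed by -0.88 and -0.74, and the log2 fold change was -0.56 (SE 0.284). Lgals3bp had 163.3, 260.8 and 149.0 CPM against 76.3, 177.0 and 151.3 CPM. Ifi27 had 36.9, 36.4 and 35.8 CPM against 16.2, 23.7 and 34.2 CPM, so that its control libraries were nearly level and its AAV-VEGF-C libraries spread widely below them (-0.50, SE 0.318). Bst2 had 16.5, 37.4 and 34.5 CPM against 6.93, 27.2 and 19.3 CPM, with the first library the lowest of each group.

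No gene of the immunoproteasome or of the ubiquitin-like and TRIM group passed (adjusted p of 0.274 to 0.999 by edgeR). Psmb8 had 29.9, 60.3 and 57.3 CPM against 18.5, 41.6 and 26.5 CPM, with -0.74 (SE 0.402) and some overlap, and its partner Psmb9 had -0.08. Isg15 had 12.4, 9.92 and 13.2 CPM in AAV-CTRL and 9.24, 9.32 and 9.49 CPM in AAV-VEGF-C. These values do not overlap, yet AAV-VEGF-C 1 held 4 counts of it, and the log2 fold change was -0.34 (SE 0.343, adjusted p = 0.567 by edgeR). Trim25, the ubiquitin ligase that activates the sensor RIG-I, had 26.2, 167.0 and 101.1 CPM against 244.9, 175.6 and 67.0 CPM. Its pairs differed by 3.18, 0.07 and -0.59, so experiment 1 alone stood well above 0. The log2 fold change was 0.71 (SE 0.690), and it was -0.24 without both libraries of that experiment.

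The sensors were the RNA helicases Ddx58 (RIG-I), Ifih1 (MDA5) and Dhx58 (LGP2), the helicase Ddx60 and the nucleic acid sensor Zbp1, with log2 fold changes of -0.66 to 0.01 and adjusted p of 0.236 to 0.990 by edgeR. Ddx58 had 35.5, 43.2 and 57.5 CPM against 18.5, 30.1 and 34.8 CPM, which do not overlap, and Zbp1 had 13.2, 27.2 and 21.1 CPM against 18.5, 22.9 and 20.1 CPM, which do. Ifi35, a partner of the Stat-interacting protein Nmi, had 34.2, 23.3 and 27.3 CPM against 13.9, 10.8 and 17.2 CPM, without overlap, at -0.998 (SE 0.332, adjusted p = 0.0982). Xaf1, which antagonises inhibitors of apoptosis, had 8.35, 18.7 and 16.2 CPM against 13.9, 17.9 and 15.2 CPM, at 0.13 (SE 0.395). The ADP-ribosyltransferases Parp14 and Parp9 had -0.61 and -0.50, and Ifih1, Usp18 (which removes Isg15 from its targets) and Ifi44 had -0.63, -0.07 and -0.25.

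The rest of the pathway was described from lists. Of 21 interferon genes, 0 reached the filter, and 16 had at most 3 counts in every library, Ifng, Ifnk, Ifna9, Ifnab and Ifnl3 among them with 0 throughout. Their counts summed to 4, 7.68 and 7.03 over the AAV-CTRL libraries and to 2, 14 and 29.8 over the AAV-VEGF-C libraries, and Ifnb1, the first interferon most cells make, had 2 counts in AAV-CTRL 3, 1 in AAV-VEGF-C 2 and 0 elsewhere. The type I receptor was present: Ifnar1 had 9.12, 17.5 and 21.8 TPM in AAV-CTRL and 0.877, 9.11 and 7.63 TPM in AAV-VEGF-C, and Ifnar2 had 13.3, 28.6 and 40.4 TPM against 2.76, 13.9 and 12.1 TPM. Both were the lowest in the first library of each group, like Irf1 and Bst2. The log2 fold changes by edgeR on counts were -0.52 for Ifnar1 and -0.51 for Ifnar2, and neither passed.

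The receptor for interferon-gamma had 15.3, 43.5 and 45.3 TPM of Ifngr1 in AAV-CTRL against 3.57, 22.6 and 17.9 TPM in AAV-VEGF-C, and 3.56, 5.67 and 8.66 TPM of Ifngr2 against 0.289, 3.71 and 2.78 TPM. Among the kinases, Jak1 had 36.5, 45.6 and 82.5 TPM against 10.8, 27.5 and 31.0 TPM, and Tyk2 3.18, 4.68 and 7.69 TPM against 1.495, 4.38 and 3.18 TPM. Their edgeR log2 fold changes on counts were -0.35 (Ifngr1), -0.37 (Ifngr2), -0.58 (Jak1) and 0.35 (Tyk2), and none passed. For Tyk2 the mean TPM thus lay lower in AAV-VEGF-C, with overlap, while the log2 fold change of counts lay above 0. Of the 11 receptor and JAK-STAT genes, 1 rose and 1 fell. Jak2, the kinase of the interferon-gamma receptor, fell (346, 498 and 964 counts against 9, 43 and 117, log2 fold change -1.08, SE 0.281, edgeR adjusted p = 0.0479). Ifnlr1, the receptor of lambda interferon, rose from few counts (14, 16 and 16 against 6, 8 and 33, log2 fold change 2.38, SE 0.587, adjusted p = 0.0391), and its TPM stayed at or below 1.07. Both calls were lost on leaving out any 1 of the 6 libraries, with adjusted p of 0.0638 to 0.116 for Jak2 and 0.0638 to 0.145 for Ifnlr1. Without AAV-CTRL 2 or AAV-CTRL 3, however, 0 of all genes were called in either direction, and without AAV-VEGF-C 2 only 8 were. Stray reads would make up 48.1%, 47.8% and 20.2% of the counts of Ifnlr1 in AAV-VEGF-C 1, 2 and 3, and its call was lost after their subtraction (2.15, adjusted p = 0.254 by edgeR) and by limma on log2(TPM + 1) (0.41, adjusted p = 0.152). The call of Jak2 was lost after subtraction (-0.94, adjusted p = 0.267), by library size alone (-1.17, adjusted p = 0.0954), with the 2000 most abundant genes (-0.62, adjusted p = 0.195), with a minimum mean of 5 TPM (-0.74, adjusted p = 0.304), by limma on log2(TPM + 1) (-1.79, adjusted p = 0.0563) and after drawing down (-0.60, adjusted p = 0.589). After subtraction, 10 of all genes were called and 0 were lower. With the 5 TPM minimum and after drawing down, 0 of all genes were called lower as well.

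Of 17 genes listed under nucleic acid sensing and interferon induction, 0 passed by edgeR (3 at an unadjusted p under 0.05). That list also held Trex1, Samhd1 and Irf2, which are not inducers. Of 14 genes listed as negative regulators, such as Socs1 and Socs3 but also the antiviral Isg20, 0 passed (0 at an unadjusted p under 0.05). Irf3, which starts the induction of interferon, had 10.2, 13.3 and 24.3 TPM against 3.12, 5.27 and 11.4 TPM and a log2 fold change of counts of -0.09 (SE 0.343). A further 68 interferon-stimulated genes outside the 43 were listed, of which 65 passed the filter. Of these, 1 was called higher, Ms4a4b, with 3, 2.06 and 3 counts against 3, 7 and 12 in libraries of lower total (log2 fold change 3.91, SE 0.717, edgeR adjusted p = 0.0199), 0 fell, and the median log2 fold change was -0.30. Stray reads at the measured rate predict 2.68, 1.96 and 2.64 counts of Ms4a4b in AAV-CTRL against 6.06, 8.03 and 14.00 in AAV-VEGF-C, which exceeds its counts in every AAV-VEGF-C library, and it had no value after subtraction. Its call was lost without AAV-CTRL 2 or 3 and without AAV-VEGF-C 2 or 3 (adjusted p of 0.0595 to 0.0802 by edgeR). Of all genes, 0 were called without AAV-CTRL 2 or 3, 8 without AAV-VEGF-C 2 and 328 without AAV-VEGF-C 3. In CPM, 17 of the 65 had all AAV-VEGF-C libraries below the controls and 5 had them above, beside the 17.6% and 22.3% of all genes given before.

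Several of the genes followed the number of the experiment in both groups. The experiment number was tested by edgeR beside the treatment, a comparison added after the data were seen. By this test 1 of the 43 genes differed, Oas2, against 2.35% of all genes, and 10 had an unadjusted p under 0.05 (23.3%, against 11.3% of all). Experiment 1 lay below the mean of experiments 2 and 3 for 39 of the 43 genes (90.7%, against 46.4% of all genes and 55.3% of the abundant ones), with a median log2 difference of -0.76 against 0.06 and -0.07. In 17 of the 43 genes (39.5%, against 9.82% of all) both libraries of experiment 1 had less CPM than each of the other 4.

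Oas2, an oligoadenylate synthetase whose product activates RNase L, had 9, 299 and 362 counts in AAV-CTRL against 1, 68 and 111 in AAV-VEGF-C. These were 1.45, 38.03 and 24.5 CPM against 2.31, 48.7 and 31.9 CPM, so both groups were low in experiment 1 and high in the other two. The log2 difference between experiment 1 and the mean of the others was -4.33 (edgeR adjusted p = 0.00486). The call was lost without AAV-CTRL 1 (adjusted p = 0.0696) or AAV-CTRL 2 (adjusted p = 0.0505), and it overlaps Gm43068 on the other strand.

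Genes near Oas2 in this order, chosen after their values were seen, did not pass. Trim30a, a TRIM protein that restrains signalling from Toll-like receptors, had 5.30, 34.1 and 29.3 CPM in AAV-CTRL and 11.6, 31.5 and 23.0 CPM in AAV-VEGF-C (log2 difference of experiment 1 -2.13, adjusted p = 0.121 by edgeR). Ddx60 had 15.7, 57.8 and 34.7 CPM against 2.31, 40.8 and 28.8 CPM (-1.91, adjusted p = 0.124). Rsad2 (viperin, which makes an antiviral nucleotide) had 8.35, 29.5 and 30.7 CPM against 6.93, 16.5 and 28.2 CPM (-1.80, adjusted p = 0.151). In all 3 the first library was the lowest of its group. Leaving out AAV-CTRL 3, AAV-VEGF-C 1 or AAV-VEGF-C 3 raised the number of the 43 genes called to 6, 4 and 5. Of all genes, 5.645%, 2.54% and 7.37% were called there, against 2.35% in the main test. Leaving out AAV-CTRL 1 or AAV-CTRL 2 lowered the number to 0, with 1.74% and 0.785% of all genes called. This count thus rests on single libraries, and the share of all genes called changed as well.

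Not every gene followed the experiments. Isg15 and Gbp2 had log2 differences of 0.07 and 0.00 between experiment 1 and the others, and Ifi35 and Gbp3 lay above 0 at 0.30 and 0.07. Beside these values stand the markers of other cells. The 12 border macrophage markers summed to 26.1, 2412 and 1500 TPM in AAV-CTRL against 20.8, 1157 and 730.8 TPM in AAV-VEGF-C. By the same test 11 of them differed between experiments, with a median log2 difference of -5.74, and 1 and 3 of them were at 0 in the 2 libraries of experiment 1. Csf1r had 100, 13780 and 9002 counts against 13, 2059 and 2341, and Ptprc, which encodes CD45, 5, 1126 and 1286 against 1, 177 and 245. A list of 12 leukocyte genes, Ptprc included, summed to 1.52, 65.7 and 53.0 TPM against 5.13, 27.9 and 78.7 TPM. Among the inducers of interferon, Tlr7, Tlr9, Irf5 and Irf8 also differed between experiments, with -4.21, -4.13, -3.49 and -2.59. The 10 lymphatic markers went the other way, with a median of 1.29 and 2 of them called. The 8 blood endothelial genes had a median of -2.63 (1 called) and the 7 mural cell genes -1.26 (0 called). The 7 leukocyte genes tested had -1.23 (2 called) and the 8 fibroblast genes 0.41 (0 called). The part of these cells in the levels of the 43 genes was not tested. Between treatments, the macrophage list had 0 genes called by edgeR (0 at an unadjusted p under 0.05) and a median log2 fold change of -0.13. The 8 fibroblast genes had a median of -1.26, with 2 called lower (5 with the block) and 6 without overlap below the controls. The 7 leukocyte genes tested had a median of 2.07, with 0 called (2 at an unadjusted p under 0.05) and 4 without overlap above the controls. The medians were -1.18 for 8 blood endothelial genes and -0.62 for 7 mural cell genes, with 0 called in each (0 and 1 at an unadjusted p under 0.05). The part of these cells in the treatment values of the 43 genes was not tested either.

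**Figure D3:**
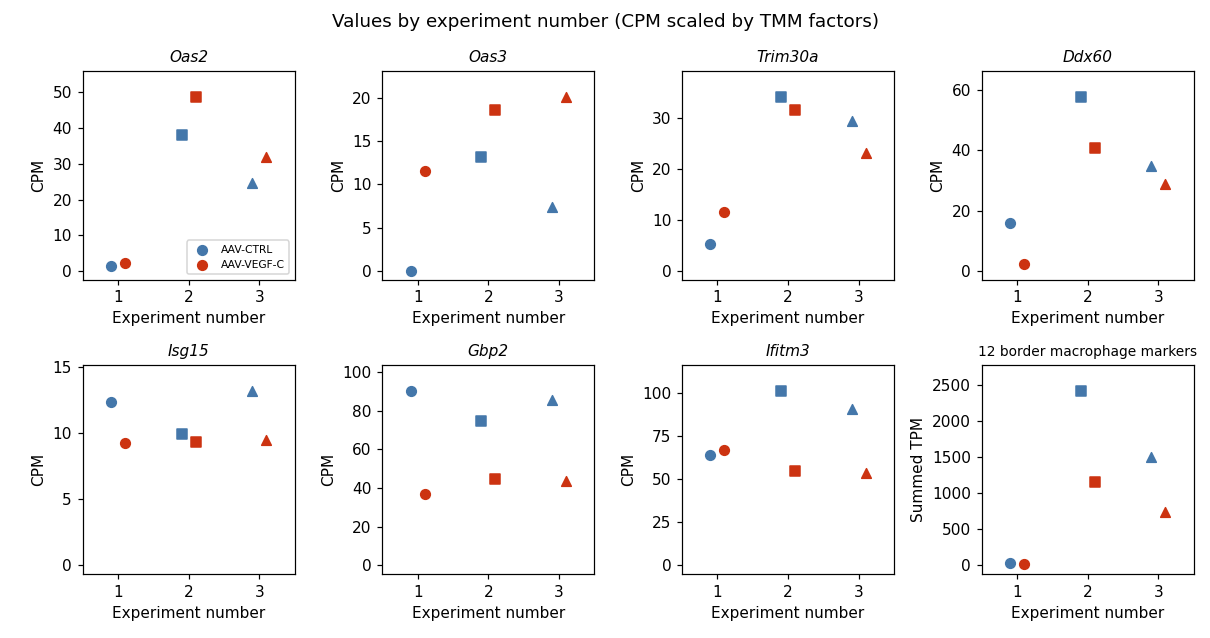
CPM by experiment number for 7 interferon-stimulated genes and, in the last panel, the summed TPM of 12 border macrophage markers, with 1 point per library (blue AAV-CTRL, red AAV-VEGF-C). Oas2 and the macrophage markers are near 0 in both libraries of experiment 1 and high in the other 4, whereas Gbp2 separates the groups in each experiment and Isg15 stays between 9.24 and 13.2 CPM.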

How the data were processed

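Dural LECs were sequenced as stranded total RNA libraries for low input. The deposited tables hold estimated counts per gene without scaling and, in a second table, TPM from the authors, which corrects for gene length and library total. The submitters' processing notes name FastQC, Trimmomatic, DRAGEN, Picard and mm10 without roles; the use of strand and molecular identifiers in counting is not given in the sources used here. Positions came from GENCODE M21 (GRCm38), whose identifiers match 98.1% of the rows with their version. Groups came from the labels. The members and gene lists were chosen with earlier results of these data known.

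Counts were rounded, filtered with filterByExpr, scaled by TMM and compared by the quasi-likelihood test of edgeR 4.0.16 (R 4.3.3) with Benjamini-Hochberg adjustment over all 17459 genes. DESeq2 1.42.0, the study's tool, and limma 3.58.1 on log2(TPM + 1), log2(TPM + 0.1) or voom values were alternatives, besides other scaling and filters, subtraction of stray reads (the rate per exon base in 1653 genes of olfactory, vomeronasal and taste receptors, keratin-associated proteins and defensins), drawing down to the smallest total and leaving out libraries. Fold changes on log2(TPM + 1) understate low genes. On simulated counts, edgeR recovered 88.7% of 97 changes of 4-fold and 100% of 103 changes of 8-fold among 16835 genes, with 3.08% false calls. Smaller changes were not simulated, whereas the log2 fold changes of the members ran from -1.07 to 1.33. The rates of recovery and of false calls were thus not measured for the members.

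Replicate numbers are tied to experiments by the labels. After subtracting group means, libraries sharing a number correlated over genes at 0.37, 0.28 and 0.15. AAV-CTRL 2 correlated less with AAV-VEGF-C 3 (0.05), but AAV-CTRL 3 correlated more with AAV-VEGF-C 2 (0.22) than with AAV-VEGF-C 3. The correlations thus set experiment 1 apart but do not separate experiments 2 and 3, whose pairing rests on the labels. Replicates of a group differed by more than sampling noise in every case (chi-square divided by its degrees of freedom 7.70 or higher). Totals of 564475 to 12399498 counts limit precision most in AAV-VEGF-C; 3 counts correspond to 0.242 to 5.31 CPM, covering counting error only. Values in every library are given for the 8 most abundant members, the called gene, the 5 largest rises and falls among members with a mean of at least 5 TPM, and Isg15, Stat2, Irf7, Irf9 and Ifit1; Oas2, Oas3, Trim30a, Ddx60, Rsad2, Ddx58, Gbp3 and Gbp7 were added after their values were seen.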

Additional observations from a re-analysis of the deposited data

How the results depend on the processing

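No member was higher in AAV-VEGF-C by any test or scaling run. The count of members lower was 1, beside 0.659% of all genes in the main fit. It was 3 with no filter (Gbp2, Samd9l and Ifi35), beside 2.64% of all genes. It was 0 with scaling by library size alone (0.304% of all genes) or on the 2000 most abundant genes (0.0458%). By limma on TPM it was 0 as well (2.49% and 0.934% of all genes with pseudocounts of 1 and 0.1). It was also 0 with a minimum mean of 5 TPM, after subtraction of stray reads or after drawing down, where 0 of all genes were lower. Subtraction with the replicate block gave 0 (0.0655% of all genes), and so did leaving out any 1 library (0% to 0.264%). The replicate block changed no call of a member (1 lower, 0 higher), with a median of -0.46. The median of the members, -0.35, was 0.09 with scaling on the 2000 most abundant genes, which moved the median of all genes to 0.45, and -1.25 and -1.57 in limma on log2(TPM + 1) and log2(TPM + 0.1). Without single libraries or experiment 1 it was -0.66 to -0.19. The count without overlap was 8 lower and 0 higher. It was 5 lower by library size alone (11.6%, beside 17.6% of all genes) and 4 lower after subtraction (9.30%, beside 16.3%). It was 1 lower and 5 higher with the 2000 most abundant genes (lower 2.33%, beside 3.76%). With a minimum mean of 5 TPM it was 3 lower and 2 higher (lower 9.38%, beside 11.9%). In TPM 15 were lower (34.9%, beside 36.4%), and after drawing down 3 (9.09%, beside 8.88%). With no filter 11 were lower (25.6%, beside 10.6%, and among the abundant 34.4% beside 44.8%). Without libraries 9 to 22 were lower (20.9% to 51.2%, beside 21.7% to 27.6%) and 0 to 2 higher. Shares of all genes on the higher side were taken in the main fit and in TPM only. Members that differed between experiments, 1 in the main test, numbered 6 with no filter, where 2.50% of all genes were called. They numbered 0 with a minimum mean of 5 TPM (3.32% of all genes) or after drawing down (3.71%). Without single libraries they numbered 0 to 6 (0.785% to 7.37% of all genes). Other pathway genes were 2 higher and 1 lower in the main fit. They numbered 5 higher and 0 lower with the 2000 most abundant genes, and 7 and 11 with no filter (2.64% of all genes lower). They were 4 and 2 by DESeq2 (1.08% of all genes lower), 5 and 2 by voom (1.53%) and 0 and 2 by limma on log2(TPM + 1) (2.49%). By library size alone 0 were lower. They were 0 and 0 in limma on log2(TPM + 0.1), with a minimum mean of 5 TPM, after subtraction (with or without the block) or after drawing down. Without libraries they were 0 to 1 higher and 0 lower. Shares of all genes called higher were taken only in the main fit (10.5%) and with the block (12.8%). The cause of these shifts between settings was not tested, except that fewer genes or counts entered the drawn-down fit.

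Of the members that the naming rule gives and Oas2 and Oas3, those whose log2 fold change turned sign, none of which passed in any setting, were as follows; other members also turned, since 19 of 43 lay below 0 with the 2000 most abundant genes and 41 in limma on TPM. With the 2000 most abundant genes, Irf1 had 0.013, Irf7 0.42, Isg15 0.12, Oasl2 0.23 and Stat2 0.043. With a minimum mean of 5 TPM, Irf7 had 0.29, Isg15 0.0015 and Oasl2 0.11. After drawing down, Ifi27 had 0.094, Irf7 0.40, Oasl2 0.32 and Stat2 0.015. After subtraction, Irf7 had 0.17 (0.20 with the block) and Oasl2 0.0020, and by voom Irf7 had 0.13. In limma on log2(TPM + 1) and log2(TPM + 0.1), Oas2 had -0.16 and -0.23, Trim25 -0.75 and -0.76, Xaf1 -1.35 and -1.62, and Zbp1 -1.32 and -1.57. With no filter, Xaf1 had -0.11 and Zbp1 -0.24, and Zbp1 had -0.10 by library size alone and -0.064 by DESeq2. Without libraries, Irf7 ran from -0.42 to 0.28, Oas2 from -0.23 to 1.11, Xaf1 from -0.18 to 0.31, Trim25 from -0.24 to 1.28 and Zbp1 from -0.27 to 0.22. Depth limits the low members of AAV-VEGF-C 1 most.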
